A study of Arabidopsis thaliana with 2 samples.

Results

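The CONSTANS-like genes described here are 10 Arabidopsis thaliana genes that encode B-box zinc finger proteins with a CCT domain: CO (AT5G15840), COL1 (AT5G15850), COL2 (AT3G02380), COL5 (AT5G57660), COL9 (AT3G07650), BBX8 (AT5G48250), BBX9 (AT4G15250), BBX13 (AT1G28050), BBX17 (AT1G49130) and AT2G47890. They were chosen by locus, with the LHY peaks of these data already known, so their peaks are given as a description with no test. Of the 10 genes, 8 are among the 1602 genes that the authors listed with a peak, and CO and COL2 are not. LHY binding was measured by chromatin immunoprecipitation and sequencing (ChIP-seq) in Col-0 wild-type seedlings, 2 weeks old and collected 2 h after dawn, when LHY is at its highest per the labels. The immunoprecipitated DNA of 4 independent samples, obtained with an antiserum to LHY, was pooled into 1 library. It was set against 1 library of input DNA from the same kind of seedlings with no antibody. Each group thus holds 1 library, no value below has a replicate error, and no library from plants that lack LHY was analysed here.

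B-box proteins carry zinc-binding domains near the N-terminus that mediate contacts between proteins. The CCT domain near the C-terminus, named for CONSTANS, CONSTANS-like and TOC1, mediates contact with DNA and with other nuclear proteins. CO is the central activator of the florigen gene FT in long days, and the timing of its expression within the day, set by the circadian clock, underlies the measurement of day length. LHY is a MYB transcription factor of the clock that is expressed in the morning and is known, with its homologue CCA1, to repress genes of the evening. The proteins fall by convention into structural groups. Group 1 holds CO and COL1 to COL5, with a pair of canonical B-boxes. In group 2, from COL9 (BBX7) to BBX13, the second B-box has diverged, and group 3, from BBX14 to BBX17, has a single B-box. AT2G47890 has no symbol in the reference table and was placed in group 2 because its closest Arabidopsis protein, named in the authors' deposited table, is BBX13.

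The descriptions in the deposited table name both a B-box zinc finger and a CCT domain for each of the 8 listed genes, so the label holds for them. Each gene had 1 peak, as did 90.9% of all listed genes. The measure of a peak is its −log10 q, the authors' own value from the peak caller, which grows with the excess of immunoprecipitated reads over input and with sequencing depth. Depth is unknown. The position is the distance of the peak from the transcription start site (TSS) of the gene, negative upstream.

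The strongest peaks of the family lay at genes of group 2. BBX8 had a −log10 q of 156 at −267 bp, the rank of 8 among the 1602 listed genes. BBX13 had 73.9 at −152 bp and ranked 55. COL9, which delays flowering by lowering CO and FT expression, had 45.1 at −651 bp and ranked 117. These 3 genes lay above the upper quartile of all listed genes, which was 18.3.

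The other 2 listed genes of group 2 had much lower values. AT2G47890 had a −log10 q of 10.9 and ranked 750, just above the median of all listed genes, 10.3. Its peak lay downstream of the TSS, at 182 bp. BBX9 had 8.38 at −560 bp and ranked 1025, below that median. The members of group 2 thus spanned values from 8.38 to 156, and BBX10 and BBX12, the remaining genes of the group, had no listed peak.

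In group 1 the listed peaks were weak. COL1, the tandem neighbour of CO and with CO as its closest Arabidopsis protein, had a −log10 q of 7.02 at −269 bp and ranked 1145. COL5, which promotes flowering when overexpressed, had 5.95 at 96 bp downstream of the TSS and ranked 1349, under the lower quartile of 6.80. CO, the gene for which the family is named, had no listed peak, nor had COL2, COL3 or COL4. COL3 is a positive regulator of light-dependent seedling development. Group 3 had 1 listed gene, BBX17, with the lowest value of the family, 3.81 at −332 bp and rank 1550. BBX14, BBX15 and BBX16 had no listed peak. All listed genes of groups 1 and 3 had lower values than every listed gene of group 2; with 1 library the error of these differences is unknown.

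**Figure D1:**
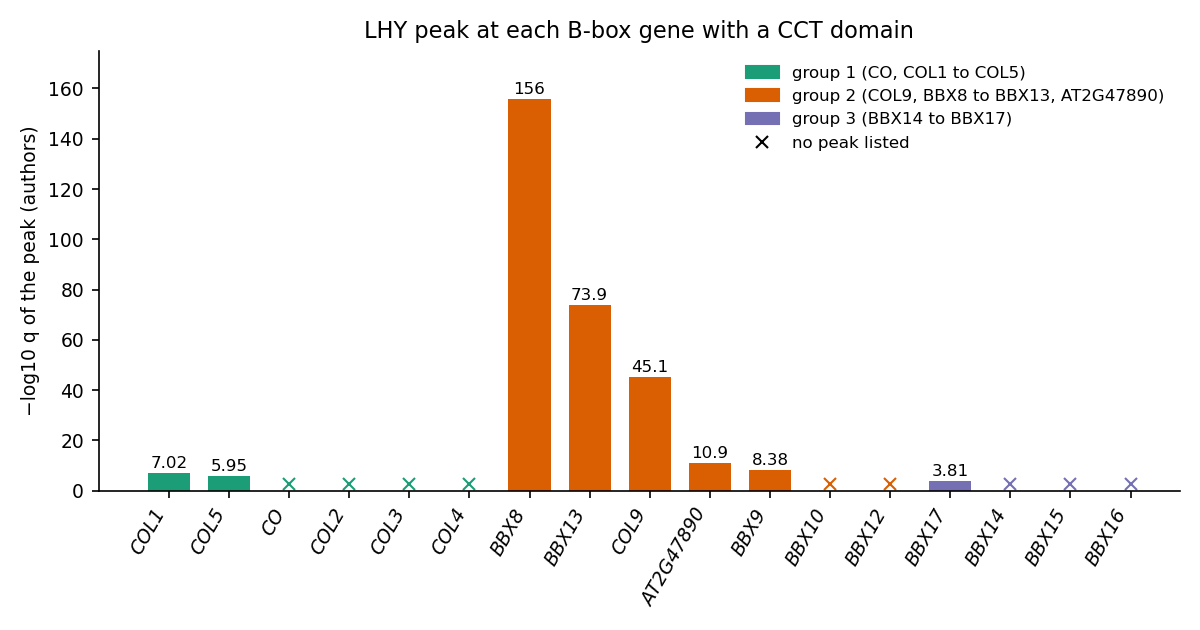
Bars give the −log10 q of the listed LHY peak (authors' values, 1 pooled library against 1 input library) for each B-box gene with a CCT domain, coloured by structural group; a cross marks a gene with no listed peak. The 3 tallest bars, BBX8 at 156, BBX13 at 73.9 and COL9 at 45.1, all belong to group 2, while COL1, COL5 and BBX17 lie between 3.81 and 7.02.

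Counted over the family, 8 of 17 B-box genes with a CCT domain had a listed peak (47.1%). Among 27444 nuclear protein-coding genes the share was 5.38%. By group the counts were 5 of 7 in group 2, 2 of 6 in group 1 and 1 of 4 in group 3. The family was listed with the results known and no test was made of these counts. The 7 CCT-type genes outside the 10 are all without a listed peak, because the 10 hold every listed gene of the family.

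Some of the low values recur elsewhere in the table. The −log10 q of BBX17 was equal to that of 17 peaks listed under other genes, that of COL1 to 3 such peaks and that of BBX9 to 1. The values of BBX8, BBX13, COL9, AT2G47890 and COL5 were shared with no other gene. The peaks that ranked next to BBX8 belonged to the chlorophyll-binding protein gene CAB1 (AT1G29930), with 158 at −154 bp, and to AT3G46630, with 148 at −267 bp.

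All 8 peaks lay close to a TSS, between −651 and 182 bp, with a median of −268 bp. The promoter window, from 1000 bp upstream to 200 bp downstream, held each of them, as it held the peaks of 70.2% of all listed genes and 66.2% of the 1633 pairs of a peak with a protein-coding gene. Of all nuclear protein-coding genes, listed or not, 3.83% had a peak in that window. The 1762 pairs of a gene and a peak in the whole table had a median of −469.5 bp. Of these pairs 592 were more than 1000 bp upstream, where the family had none. Per the file headers, a peak was assigned to the nearest gene that points away from it, and this rule itself favours upstream positions.

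Strength did not follow distance in a single order within the family. BBX8 and COL1 had peaks only 2 bp apart in distance to the TSS, at −267 and −269 bp, with −log10 q values of 156 and 7.02. COL9, stronger than all but BBX8 and BBX13, had the most distant peak. Of all pairs, 56.5% lay as near to a TSS as the peak of COL9 or nearer, against 28.7% for BBX13 and 19.6% for COL5. The peaks of COL5 and AT2G47890 lay downstream of the TSS, a position shared by 198 of the 1762 pairs (11.2%). AT2G47890 lies only 18 bp inside the downstream limit of the window. The sources used here do not say whether positions mark a summit, a centre or an edge.

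**Figure D2:**
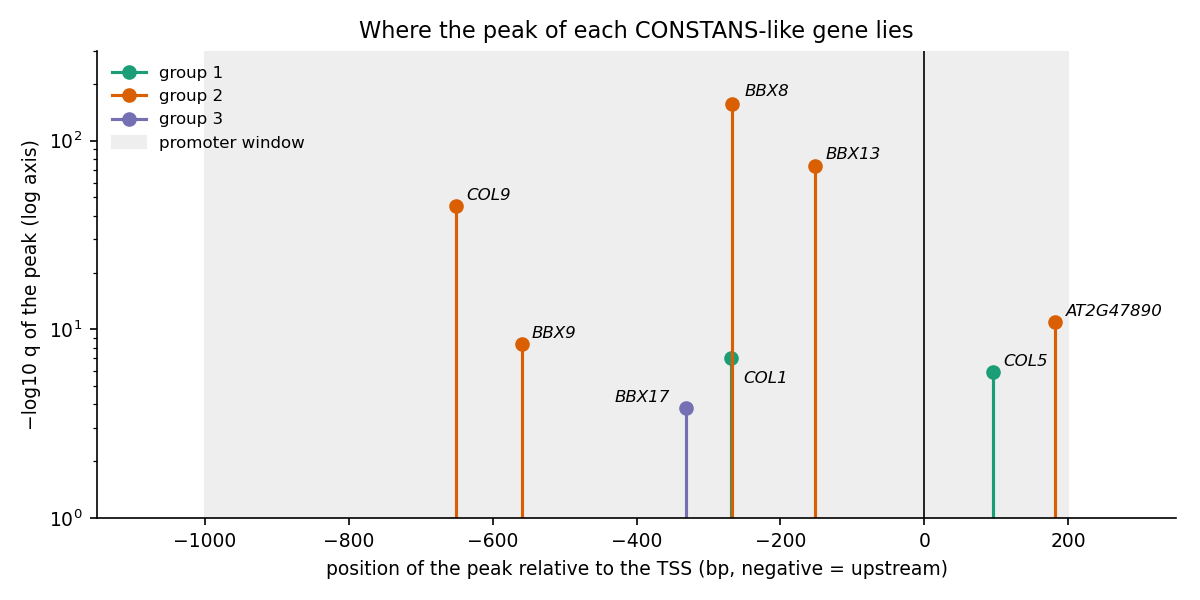
Each stem is the peak of 1 listed gene, placed by its position relative to the TSS in bp and reaching to its −log10 q on a log axis; shading marks the promoter window and colours the structural group. The 8 stems stand between −651 and 182 bp, and BBX8 and COL1 stand side by side with very different heights.

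A peak near CO or COL2 could have been listed under another gene, so the neighbours in the annotation were examined. Of the 20 immediate neighbours of the 10 genes, 1 had a listed peak, AT3G02390. The share of all nuclear protein-coding genes was 5.38%. Some of the 20 are noncoding RNA genes, which that share does not cover. AT3G02390 is an unknown protein gene whose span overlaps that of COL2. It had a −log10 q of 9.53 at −43 bp, rank 872 and no phase. Whether that peak lies at the start or the end of COL2 was not tested, since strand was not used here. The immediate neighbours of CO, the microRNA gene MIR865 and AT5G15843, which overlaps CO, were not listed. The next protein-coding gene beyond MIR865, bZIP3, was not listed either. On the other side, the next protein-coding gene that does not overlap CO is COL1, with the peak given above. These neighbours come from the TAIR10.1 annotation, while the authors worked with TAIR9. A peak near CO that was listed under a gene farther away would thus be missed. Any of the neighbours that TAIR9 lacks could not have been listed.

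BBX9 stands next to BBX30, and BBX10 next to BBX31. BBX30 and BBX31 encode small B-box proteins without a CCT domain that bind CO and repress flowering. Neither was listed, so of these 4 genes BBX9 alone had a listed peak. Beside BBX10 stands the cyclin gene CYCP2;1, listed with 11.7 at −136 bp and a phase of 17 h. Beside COL4 stands GDU5, listed with 29.9 at −2378 bp and no phase.

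Some of the listed genes of group 2 were closest homologues of each other. The deposited table names the closest Arabidopsis protein for each of the 8 listed genes, and in all 8 cases it is another B-box protein with a CCT domain. COL9 and BBX8 are each other's closest match, and both were listed. The closest match of AT2G47890 is BBX13, also listed. In the remaining 5 cases the match was not listed: CO for COL1, COL4 for COL5, BBX10 for BBX9, BBX12 for BBX13 and BBX16 for BBX17. The closest match was thus listed for 3 of 8 genes (37.5%), against 14.7% of the 1312 listed genes with a named match. BBX8 and COL9 account for 2 of the 3, being counted once from each side. The members were chosen with their peaks known and hold every listed gene of the family, to which all 8 matches belong. The 2 shares are therefore given as a description, and their difference was not tested.

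The table also holds a phase, the hour after subjective dawn at which a gene is most expressed in plants kept in constant light. Per the file headers, the authors took it from the Diurnal database at a cut-off of 0.8, and it was not measured in these seedlings. A phase was given for 6 of the 8 listed genes and for 38.1% of all listed genes. BBX9 and BBX17 had none. Genes under the cut-off and genes absent from the database were not told apart, and the phases of CO and COL2 were not analysed here.

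The phases of group 2 fell together late in the subjective day. BBX8 and COL9 peaked at 10 h, AT2G47890 at 11 h and BBX13 at 12 h. The group 1 genes lay far from them and from each other: COL5 peaked at 4 h, in the subjective morning, and COL1 at 21 h, in the late subjective night. Phases of 10 to 12 h were thus given for 4 of 6 genes, against 16.7% of the 610 listed genes with a phase. This window was set from the values of these genes and no test was made. The most frequent phase of all listed genes was 8 h, with 93 genes, none of them of the family. The hours from 5 to 8 h held 230 genes (37.7%) and likewise no CONSTANS-like gene. That span, too, was chosen with the values known. From 6 to 11 h lay 3 of the 6 genes, beside 277 of the 610 listed genes with a phase.

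The listed closest matches within the family had like phases. BBX8 and COL9 had the same phase, and AT2G47890 and BBX13 differed by 1 h. Among all 39 pairs of listed closest matches with a phase for both genes, the median difference was 2 h on the circle of hours, and 14 pairs (35.9%) differed by at most 1 h. Strength was not shared in the same way. The −log10 q of BBX8 and COL9 were 156 and 45.1, and those of BBX13 and AT2G47890 were 73.9 and 10.9.

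**Figure D3:**
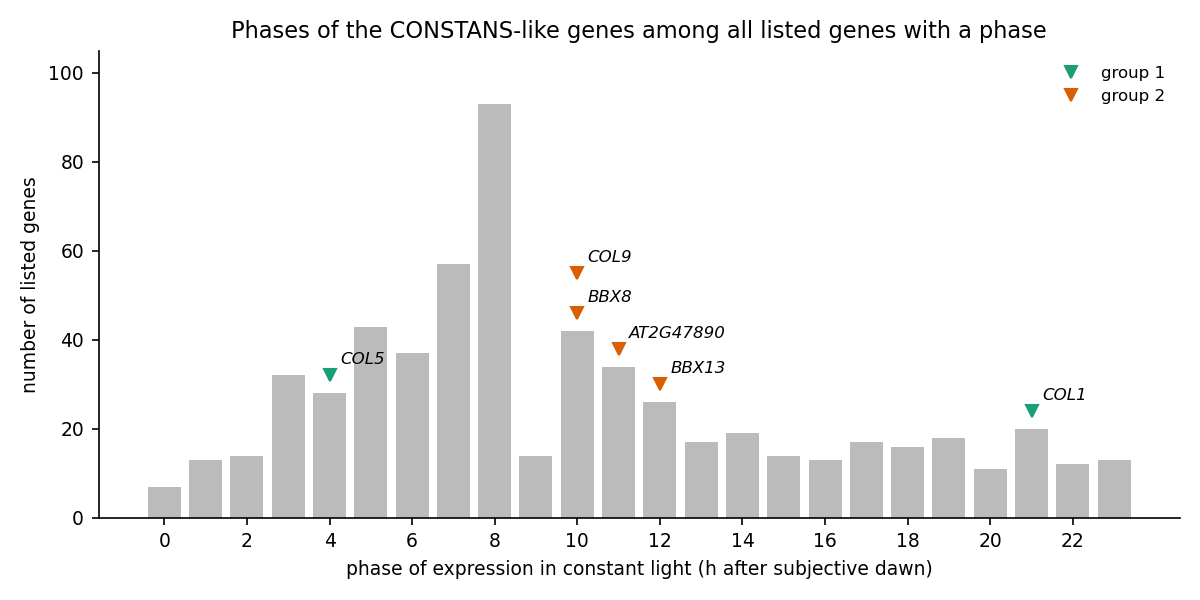
Grey bars count the listed genes at each phase of expression in constant light (hours after subjective dawn, 610 genes), and triangles mark the 6 CONSTANS-like genes with a phase, coloured by structural group. The 4 genes of group 2 stand at 10 to 12 h, after the highest bar at 8 h, and COL5 and COL1 stand apart at 4 and 21 h.

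Strength was also set against that of other genes of the same phase, since −log10 q differed between phases. The median over the 42 listed genes with a phase of 10 h was 22.6, the highest of any hour. Within those 42, BBX8 ranked 3, after the blue-light receptor gene FKF1 (260.1) and the clock gene TOC1 (182), and before the evening complex gene BOA (127). COL9 ranked 12 of 42. BBX13 ranked 5 of the 26 genes at 12 h, whose median was 14.6. AT2G47890 ranked only 26 of the 34 genes at 11 h, under their median of 16.7. COL5 ranked 26 of 28 at 4 h, where the median was 8.95, and COL1 ranked 12 of 20 at 21 h, where the median was 7.60. BBX8, BBX13 and COL9 were therefore strong also for their phase, and the other 3 were not.

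**Figure D4:**
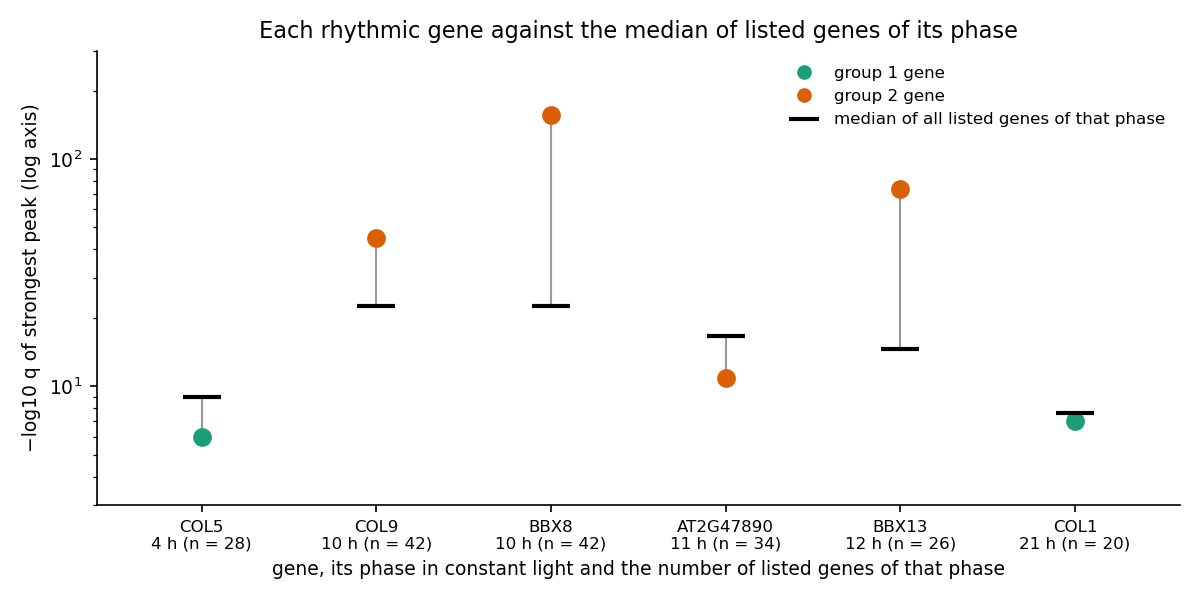
Points give the −log10 q (log axis) of the 6 CONSTANS-like genes with a phase, and black dashes the median over all listed genes of the same phase, whose number is given under each gene. BBX8, BBX13 and COL9 lie above the median of their phase, and COL5, AT2G47890 and COL1 lie below it.

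The CCT domain itself was named in the descriptions of 18 listed genes, of which 10 lie outside the B-box family. Among these were the pseudo-response regulator genes TOC1 (182, phase 10 h), PRR7 (98.9, 6 h), PRR9 (93.1, 3 h), PRR5 (78.0, 7 h) and PRR3 (14.2, 8 h), which repress morning genes of the clock. BBX8 was second only to TOC1 among the 18, and BBX13 and COL9 followed PRR5. The others were the jasmonate repressor genes JAZ1, JAZ6 and JAZ3, whose Jas motif resembles part of a CCT domain, CIL and AT5G14370. JAZ1, JAZ6 and JAZ3 had values of 18.6, 17.5 and 13.03, with a phase of 2 h for JAZ3 and none for JAZ1 and JAZ6. CIL had 32.3 with a phase of 8 h, and AT5G14370 had 10.3 with a phase of 15 h.

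B-box genes without a CCT domain were listed in 5 of 15 cases (33.3%, beside the 5.38% of all nuclear protein-coding genes). BBX29 had 86.8 at −494 bp with a phase of 3 h. BBX28, its closest match, had 71.5 at −600 bp and a second peak of 6.04 at −1172 bp, with no phase. LZF1 (BBX22), which promotes light-dependent seedling development, had 13.2 at −790 bp and a phase of 6 h. STO (BBX24) and STH (BBX25), which restrain it, had 10.06 at −15 bp and 8.50 at 111 bp, with phases of 3 and 23 h. None of the 4 with a phase fell between 10 and 12 h, where the 4 genes of group 2 lay. No test was made of this difference, because the members and the window were both chosen with the values known.

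Upstream and downstream of CO in the photoperiod pathway, 7 of 18 genes were listed (38.9%, beside the 5.38% of all nuclear protein-coding genes). Of the regulators of CO transcription, FKF1 (260.1 at −273 bp) and GI (162 at −861 bp, 66.0 at −33 bp), which together remove the repressors of CO, had the strongest peaks. CDF1, such a repressor, had 21.7 at −481 bp and 14.2 at 12 bp, and AT1G69570, a related Dof-type zinc finger gene, had 25.8 at −987 bp and 9.39 at 53 bp. Regulators of CO protein followed with CRY2, a blue-light receptor that stabilises it (14.1 at 25 bp), and SPA1, part of the complex that degrades it (7.64 at −357 bp). Of the targets, the floral integrator SOC1 (AGL20) had 10.3 at −750 bp, while FT and TSF were not listed. The other 9 genes without a listed peak were also regulators: ZTL and LKP2, homologues of FKF1, CDF2 and CDF3, homologues of CDF1, COP1, SPA3 and SPA4 of the complex that degrades CO, and the phytochrome genes PHYA and PHYB.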

How the data were processed

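The members and gene lists were chosen with earlier results of these data known. The submitters' processing notes name Bowtie, MACS2 (2.0.10.09132012) and the TAIR9 build. The peak threshold and the handling of reads with several matches are, in the sources used here, not given. For each gene the authors deposited the −log10 q of up to 4 peaks with their positions; a header line also speaks of the p-value for this column. These values were used only for description and ranks.

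Of 1602 loci, 1596 matched the RefSeq table of TAIR10.1, which was used for symbols, biotypes, gene order and the overlap of neighbouring genes. Since the builds differ in name, its coordinates served for that order and overlap alone and not to place peaks. All 50 list genes matched by locus; 2 of them, AT2G47890 and AT1G69570, carry no symbol there and are named by locus. Named genes were the 10 members, the other CCT-type B-box genes, listed genes of the other lists, immediate neighbours of the members and the genes ranked next to BBX8. Also named, beyond that plan, were the photoperiod genes without a listed peak, bZIP3 and neighbours of BBX10 and COL4. The genes annotated with a CCT domain and the strongest genes of a 10 h phase were added after their values were seen, as were the comparisons of closest matches and of phases. Closest matches were read from the descriptions. Counts were made with Python 3.11.15, NumPy 2.4.6 and pandas 2.3.3. Evening element searches, planned for the promoters, were not run, as no sequence was used here.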

Additional observations from a re-analysis of the deposited data

How the results depend on the processing

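Of 16 alternative counts for 6 results, 13 moved by less than the limit of 1.5 times the reported count. Several of the 13 could not move. All listed members have their only peak inside the promoter window. Counts of members restricted to that window, to a wider one or to the strongest peak had to stay the same. The counts of CCT-type B-box genes repeat those of the members, since the listed genes are the same. With peaks above the median −log10 q of 10.2 alone, listed members fell from 8 to 4 (BBX8, BBX13, COL9 and AT2G47890), so the CCT-type B-box genes also gave 4, and the B-box genes without a CCT domain gave 3 in place of 5; fewer peaks enter by construction. With 500 bp upstream, 6 of the 8 members stayed in the promoter window, and COL9 and BBX9 left it. Leaving out peaks shared with a nearer gene changed none of the 4 list counts. The 3 alternatives for the evening element were not run. Depth is unknown, and it limits above all the weak peaks of COL1, COL5, BBX9 and BBX17. No paired analysis was possible because there is a single library of each kind.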
